A study of Mus musculus with 3 samples.

Results

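The 9 genes described here encode mitogen-activated protein (MAP) kinases and the kinases directly above and below them in the pathway from the lipopolysaccharide receptor Tlr4. They are Map3k8, Map2k1, Map2k3, Map2k4, Mapk3, Mapk8, Mapk9, Mapk14 and Mapkapk2, and each was matched by its symbol to 1 of the 55536 genes in the tables. The material was RNA of the cytosol of macrophages grown from bone marrow of mouse strain C57BL/6J, which are primary cells. In the 1 group of 3 libraries, cells received lipid A, the part of lipopolysaccharide that Tlr4 binds, at 100 ng/ml for 12 hours, were kept without it for 12 hours, and received it again at 100 ng/ml for 60 minutes. Each library was total RNA sequencing after ribosomal RNA depletion from 1 µg of RNA. The labels list all 3 samples under the same donor entry, so the spread between these samples may be technical. P-values here rest on that spread, except those of the chi-square test, which rest on counting error.

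MAP kinases stand near the end of a relay in which each kinase phosphorylates the next. Below Tlr4, the adaptor Myd88 and the ubiquitin ligase Traf6 activate the kinase TAK1 and the IKK complex. IKK frees Tpl2, the product of Map3k8, from the p105 protein that Nfkb1 encodes, and Tpl2 then phosphorylates MEK1, which phosphorylates the ERK kinases. TAK1 works through MKK3 on p38 kinases and through MKK4 on JNK and p38 kinases. The p38 alpha kinase activates MK2, the product of Mapkapk2, which controls the stability of cytokine messenger RNAs in macrophages. Much of this control acts on protein activity, which RNA levels do not measure.

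The MAP kinase of each branch carries its activating phosphate sites in a short loop. This loop is shown here to identify the 4 MAP kinase members by the codons of those sites. The stretches are 36 bases of coding sequence of GENCODE M21 transcripts on GRCm38 (mm10), 5′ to 3′, with the codons of the motif (a threonine, an intervening residue and a tyrosine) in capitals. The threonine is codon 203 of 380 in Mapk3-202, codon 183 in Mapk8-201 and in Mapk9-201, and codon 180 of 360 in Mapk14-202.
Mapk3 (chr7:126763446-126763481, plus strand): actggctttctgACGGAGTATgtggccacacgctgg
Mapk8 (chr14:33392988-33393023, minus strand): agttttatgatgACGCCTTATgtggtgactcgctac
Mapk9 (chr11:49872818-49872853, plus strand): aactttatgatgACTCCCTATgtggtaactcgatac
Mapk14 (chr17:28728387-28728422, plus strand): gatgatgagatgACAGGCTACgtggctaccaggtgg
The middle codon differs by branch: glutamate (GAG) in Mapk3, which encodes ERK1, proline (CCT and CCC) in the JNK genes Mapk8 and Mapk9, and glycine (GGC) in Mapk14, which encodes p38 alpha.

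The genes Mapk8, Mapk9 and Mapk14 have alternative coding exons of equal length, shown here because the transcript shares reported further on turn on them. In Mapk8 and Mapk9, transcripts carry either the first or the second of a pair of exons of 72 bases in the kinase domain. Capital letters are not used in these exons, since the whole exon is the difference.
Mapk8 first (chr14:33390673-33390744, minus strand): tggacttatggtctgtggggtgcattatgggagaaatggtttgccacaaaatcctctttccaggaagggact
Mapk8 second (chr14:33390242-33390313, minus strand): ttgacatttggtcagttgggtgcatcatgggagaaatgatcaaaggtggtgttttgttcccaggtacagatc
Mapk9 first (chr11:49873836-49873907, plus strand): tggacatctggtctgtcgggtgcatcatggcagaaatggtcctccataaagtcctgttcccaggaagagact
Mapk9 second (chr11:49874264-49874335, plus strand): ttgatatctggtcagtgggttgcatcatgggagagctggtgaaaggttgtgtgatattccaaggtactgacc
The first exons of the 2 genes were identical at 59 of 72 bases and the second exons at 57 of 72. Within a gene the exons shared fewer bases, 45 of 72 in Mapk8 and 47 of 72 in Mapk9. In Mapk14 the alternative exons are 80 bases long and were identical at 39 of 80.
Mapk14 first (chr17:28737011-28737090, plus strand): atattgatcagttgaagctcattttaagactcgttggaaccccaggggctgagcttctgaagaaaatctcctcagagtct
Mapk14 second (chr17:28740680-28740759, plus strand): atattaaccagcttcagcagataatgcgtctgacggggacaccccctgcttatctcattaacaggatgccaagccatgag

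The JNK genes also share a choice between acceptor sites 5 bases apart at the last coding exon, which sets the end of the protein. The junction is shown with the 5 bases of the upstream acceptor in capitals, and each stretch ends at the stop codon of the shorter form.
Mapk8 upstream acceptor: cgtctcctttagCACAGgtgcagcaatga
Mapk8 downstream acceptor: cgtctcctttaggtgcagcaatga
Mapk9 upstream acceptor: accagccttcagCACAGatgcagcagtaa
Mapk9 downstream acceptor: accagccttcagatgcagcagtaa
With the 5 bases, the reading frame meets the stop codon at the end of each stretch. Without them it runs past, and the coding sequence is 1281 bases in Mapk8-201 against 1152 in Mapk8-203, and 1269 bases in Mapk9-201 against 1143 in Mapk9-204. The upstream and downstream acceptors lie at chr14 33382324 and 33382319 in Mapk8, and at chr11 49883142 and 49883147 in Mapk9.

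Expected counts on genes totalled 46546422 to 53364168 per library, and 3 counts, the limit that a count of 0 allows, correspond to 0.0562 to 0.0645 CPM (counts scaled to a fixed total), counting error only. All 8 macrophage markers examined, among them Adgre1, Csf1r and Lyz2, were above 1 TPM (transcripts per total, scaled for length). Their summed level was 6584, 4783 and 5015 TPM in replicates 1, 2 and 3. Of 33 markers of neutrophils, T cells, B cells, dendritic, stromal, erythroid and mast cells, only the neutrophil gene S100a8 passed the test for a level above 1 TPM, at 2.59, 2.88 and 3.94 TPM. Of the 6 neutrophil markers, 2 were listed at 0 in every library, Ly6g and Retnlg, and of the 5 T cell markers 1, Cd3g. The test placed 3 of 5 stromal markers and 1 of 5 dendritic cell markers neither above nor below 1 TPM. Nuclear protein-coding genes held 34.5%, 29.0% and 27.5% of all TPM in replicates 1, 2 and 3, so TPM of messenger RNAs ran higher in replicate 1 than CPM did.

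All 9 kinase genes were expressed, across a range from 2.95 to 92.5 TPM. Each was placed above 1 TPM by limma on log2(TPM + 1), with Benjamini-Hochberg adjusted p from 3.1e-08 for Mapk3 to 1.7e-05 for Mapk8. The same test placed 44.5% of the 20685 genes tested and 61.0% of the 14374 nuclear protein-coding genes tested above 1 TPM. The median of the members was 17.9 TPM, beside 0.68 TPM over all genes tested, which include non-coding genes. Set against nuclear protein-coding genes tested alone, the members ran from the 49.2 percentile for Mapk8 to the 96.3 percentile for Mapkapk2. Map2k3 stood at the 67.6 percentile and Map2k4 at the 72.2 percentile. The authors' model assigned the counts of each member to that gene alone, with a posterior standard deviation of 0 for the gene count in every library.

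**Figure D1:**
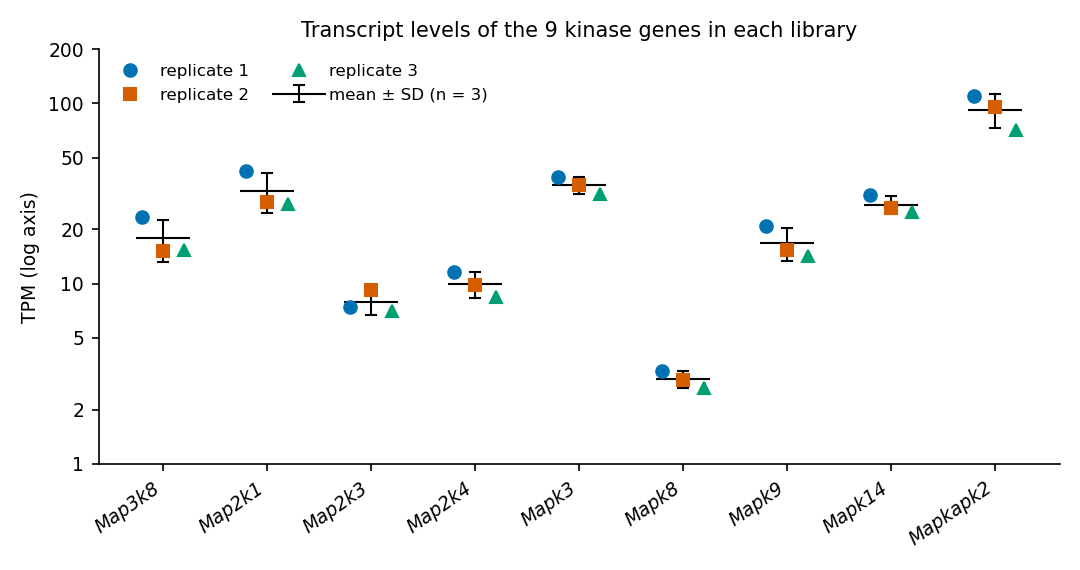
Levels of the 9 kinase genes in TPM on a log axis, with 1 point per library and a line and bars for the mean and SD of the 3 libraries. Mapkapk2 stood highest, between 71.1 and 110.3 TPM, and Mapk8 lowest, between 2.64 and 3.28 TPM, and neither range met that of another member.

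Map3k8 (chr18:4331327-4353015, minus strand) encodes Tpl2, the kinase that links IKK to the ERK branch. Its level was 23.3, 15.1 and 15.4 TPM in replicates 1, 2 and 3, with a mean of 17.9 ± 4.67 TPM (SD, n = 3). Replicate 1 stood above the other libraries, which were nearly level with each other. The mean lay at the 82.6 percentile of nuclear protein-coding genes tested.

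Map2k1 (chr9:64185770-64253631, minus strand) encodes MEK1, the substrate of Tpl2 and the activator of the ERK kinases. It was measured at 42.5, 28.5 and 27.7 TPM in replicates 1, 2 and 3, a mean of 32.9 ± 8.3 TPM (SD, n = 3). As in Map3k8, replicate 1 was the high library. Mapk3 (chr7:126759601-126765819, plus strand) encodes ERK1, which MEK1 phosphorylates. Its level was 39.0, 35.2 and 31.4 TPM, a mean of 35.2 ± 3.82 TPM (SD, n = 3), with the libraries spread evenly.

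Map2k3 (chr11:60932033-60952811, plus strand) encodes MKK3, an activator of p38 kinases. It stood at 7.42, 9.24 and 7.05 TPM in replicates 1, 2 and 3, a mean of 7.90 ± 1.17 TPM (SD, n = 3), with replicate 2 high. Mapk14 (chr17:28691329-28748406, plus strand) encodes p38 alpha, the main p38 kinase of macrophages. Its level was 31.0, 26.4 and 25.1 TPM, a mean of 27.5 ± 3.08 TPM (SD, n = 3).

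Mapkapk2 (chr1:131053700-131097826, minus strand) encodes MK2, the kinase that p38 alpha activates. It was the highest member, at 110.3, 96.1 and 71.1 TPM in replicates 1, 2 and 3, a mean of 92.5 ± 19.8 TPM (SD, n = 3). This placed it at the 96.3 percentile of nuclear protein-coding genes tested. An uncharacterised transcript on the same strand, Gm37084, overlaps it and had 116, 52 and 359 counts, beside 21797, 23271 and 15626 counts for Mapkapk2.

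Map2k4 (chr11:65688243-65788297, minus strand) encodes MKK4, an activator of JNK kinases and also of p38. Its level was 11.6, 9.80 and 8.41 TPM in replicates 1, 2 and 3, a mean of 9.95 ± 1.62 TPM (SD, n = 3). The JNK1 gene Mapk8 (chr14:33377898-33447158, minus strand) was the lowest member at 3.28, 2.93 and 2.64 TPM, a mean of 2.95 ± 0.32 TPM (SD, n = 3). The JNK2 gene Mapk9 (chr11:49846751-49886421, plus strand) stood at 20.8, 15.4 and 14.3 TPM, a mean of 16.9 ± 3.48 TPM (SD, n = 3). The libraries of Mapk9 and Mapk8 did not overlap, since the lowest Mapk9 library lay above the highest Mapk8 library. A processed pseudogene inside Mapk8 on the same strand, Gm49037, had 0, 274.5 and 120.7 counts, beside 657, 741 and 591 counts for Mapk8. The strand setting of the counting is not given in the sources used here, and would not separate genes on the same strand.

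The order of the members by mean TPM was Mapkapk2, Mapk3, Map2k1, Mapk14, Map3k8, Mapk9, Map2k4, Map2k3 and Mapk8. Of the 8 neighbouring pairs in that order, 2 did not hold in every library. Mapk3 exceeded Map2k1 in 2 of 3 libraries, by 0.12 ± 0.21 on the log2(TPM + 1) scale (SD). Map3k8 exceeded Mapk9 in 2 of 3 libraries, by 0.07 ± 0.09 on that scale. The authors deposited a second set of tables, made directly from the reads, in which TPM of the members was lower. Mapkapk2 stood there at 41.5 ± 7.51 TPM and Mapk8 at 1.55 ± 0.238 TPM (SD, n = 3 each), and Mapk9 and Map3k8 changed places in the order, at 8.91 and 8.10 TPM.

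Each member belongs to a small family, and in some families 1 gene carried most of the RNA while in others a pair did. Differences were taken within a library on the log2(TPM + 1) scale, member minus relative, for 12 pairs. An exact two-sided sign-flip test over 3 libraries cannot go below p = 0.25, so no pair could pass a threshold. In 11 of the 12 pairs the member was higher in all 3 libraries, which gives that smallest p, while Map2k1 and Map2k2 changed order between libraries.

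**Figure D2:**
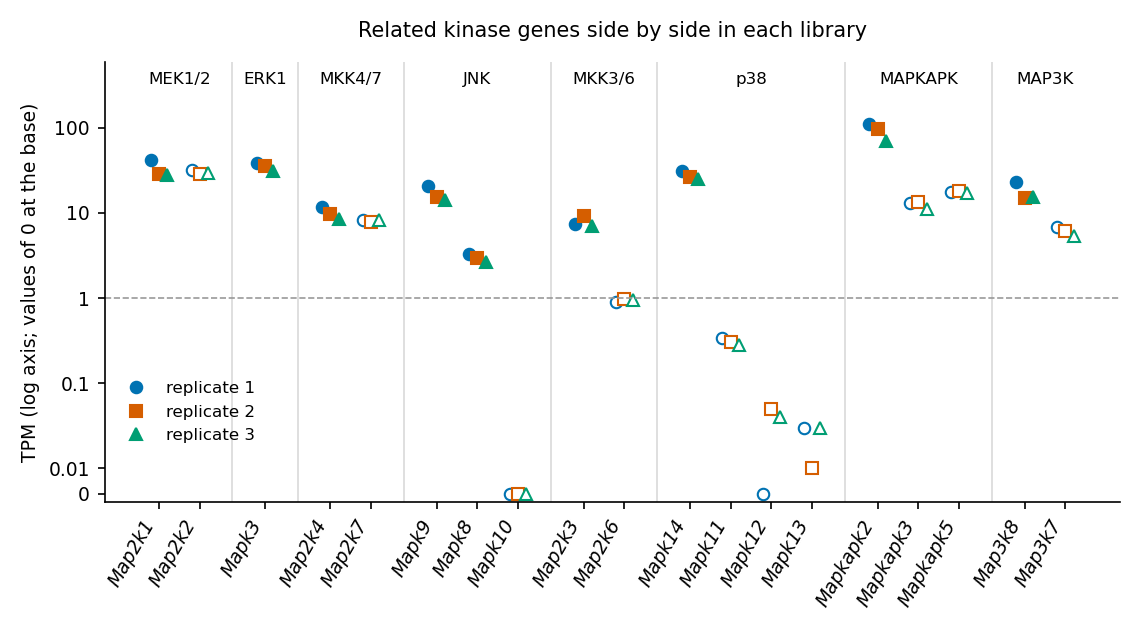
TPM on a log axis for the members (filled symbols) and their relatives (open symbols), grouped by kinase family, with 1 symbol per library and values of 0 drawn at the base. The p38 relatives Mapk11, Mapk12 and Mapk13 and the JNK gene Mapk10 lie below the dashed line at 1 TPM in every library, while Map2k2 and Map2k7 lie close to the members beside them.

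In the ERK branch both MEK genes were expressed at similar levels. Map2k2, which encodes MEK2, had 31.6, 28.8 and 29.4 TPM in replicates 1, 2 and 3, against which Map2k1 differed by 0.11 ± 0.27 (SD, n = 3). Map2k1 was the higher gene in replicate 1 alone, by 0.41, and was lower by 0.01 and 0.08 in replicates 2 and 3.

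In the JNK branch Mapk9 led. On the log2(TPM + 1) scale it exceeded Mapk8 by 2.16 ± 0.16 (SD, n = 3), and by 1.96 ± 0.12 in the second set of tables. The third JNK gene, Mapk10, known from brain, was listed at 0 TPM in all 3 libraries, with 1 count in replicate 1 and 0 counts in replicates 2 and 3. Among the activators, Map2k4 exceeded Map2k7, the MKK7 gene, by 0.25 ± 0.22 (SD, n = 3), with a difference of 0.01 in replicate 3. Map2k7 stood at 8.32, 7.77 and 8.33 TPM.

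In the p38 branch 1 kinase gene stood far above its relatives. On the log2(TPM + 1) scale Mapk14 exceeded Mapk11 by 4.44 ± 0.12, Mapk12 by 4.79 ± 0.19 and Mapk13 by 4.79 ± 0.15 (SD, n = 3 each). Mapk11, which encodes p38 beta, had 0.34, 0.30 and 0.28 TPM, and limma placed it below 1 TPM (adjusted p = 1.8e-05). The p38 gamma gene Mapk12 had 0, 0.05 and 0.04 TPM and the p38 delta gene Mapk13 had 0.03, 0.01 and 0.03 TPM. With levels this low, the added 1 in the log sets most of the size of the difference, which was 7.75 for Mapk12 and 7.81 for Mapk13 with 0.1 added.

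The activators of p38 also differed, with Map2k3 above Map2k6, the MKK6 gene, by 2.19 ± 0.17 (SD, n = 3). With 0.1 added in place of 1 the difference was 2.94 ± 0.17, and in the second set of tables it was 1.68 ± 0.19. Map2k6 had 0.89, 0.98 and 0.95 TPM and was placed neither above nor below 1 TPM (limma, adjusted p = 0.56). Below p38, Mapkapk2 exceeded Mapkapk3, which encodes a close relative of MK2, by 2.76 ± 0.21, and Mapkapk5 by 2.31 ± 0.29 (SD, n = 3 each). Mapkapk3 had 13.2, 13.4 and 11.2 TPM and Mapkapk5, the MK5 gene, 17.7, 18.2 and 16.97 TPM.

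At the top of the relay Map3k8 exceeded Map3k7, the TAK1 gene at 6.93, 6.16 and 5.36 TPM, by 1.38 ± 0.22 (SD, n = 3). The second set of tables gave 0.80 ± 0.28 for this pair. Among the remaining kinases of these classes, the ERK3 gene Mapk6 was the highest at 49.7, 48.8 and 37.4 TPM. Mapk7, which encodes ERK5, had 9.06 ± 0.529 TPM and its activator gene Map2k5 had 6.43 ± 0.659 TPM (SD, n = 3 each). Mapk4 and Mapk15, genes of atypical MAP kinases, did not exceed 0.01 TPM in any library. Of these 15 other MAP2K, MAPK and MAPKAPK genes, limma placed 8 above 1 TPM and 5 below, beside 9 of 9 members above. The share above over nuclear protein-coding genes tested was 61.0%. Members and lists were chosen with earlier results of these data known, so these counts are no test of the members.

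Transcript shares were taken within each gene, and 5 of the 9 members were carried almost wholly by 1 coding transcript. The share of the gene's TPM was 98.0% for Map3k8-201, 99.6% for Map2k1-201, 98.8% for Map2k3-201, 92.5% for Map2k4-201 and 99.9% for Mapkapk2-201, as means of 3 libraries. The second set of tables gave 97.2%, 99.0%, 96.5%, 87.9% and 98.0% for the same transcripts. The other 4 members, which are the MAP kinases themselves, were split over 2 or 3 transcripts that each held at least 5%.

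**Figure D3:**
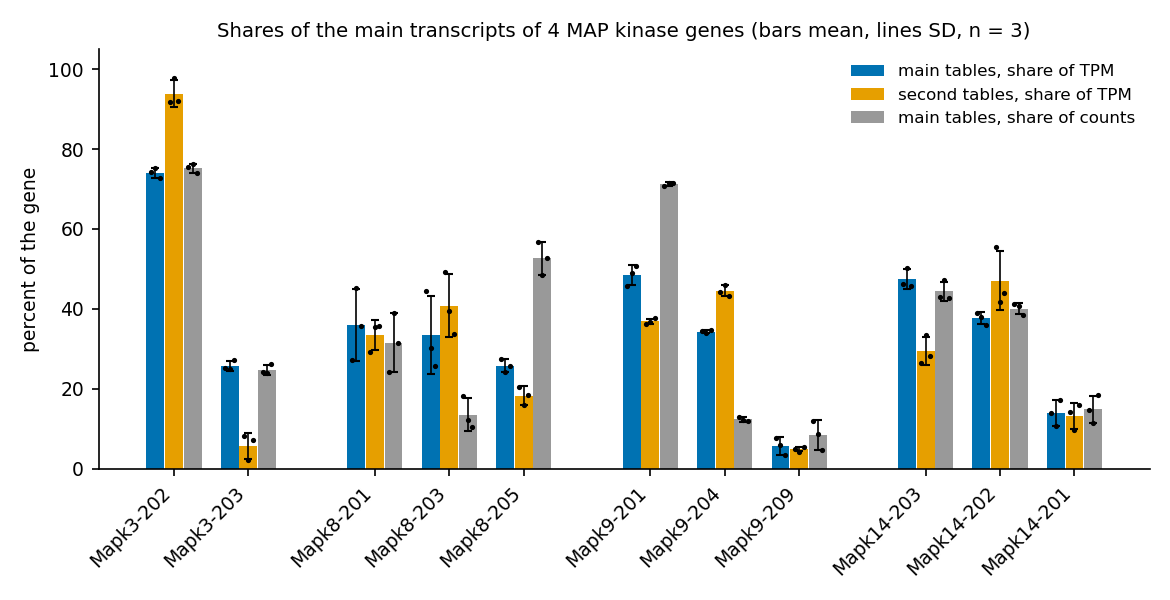
Share of each gene in its main transcripts as percent, for Mapk3, Mapk8, Mapk9 and Mapk14, by TPM in the main tables, by TPM in the second tables and by expected counts, with bars for means, lines for SD and dots for the 3 libraries. The share of Mapk3-203 was 25.7% of TPM in the main tables and 5.71% in the second tables, and Mapk8-205 held more of the counts than of the TPM.

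Mapk3-202, with the full coding sequence of 1140 bases, held 74.2%, 75.2% and 72.8% of Mapk3 TPM in replicates 1, 2 and 3. Mapk3-203 held 25.1%, 24.8% and 27.1%. This transcript begins inside the gene with a first exon of 317 bases, and its annotated coding sequence of 795 bases lacks the first 115 codons. In the second set of tables Mapk3-202 held 93.8% ± 3.4 and Mapk3-203 5.71% ± 3.21 (SD, n = 3 each), so the share of the later start was not settled by these files.

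Mapk14 showed the same kind of split. Mapk14-203, whose annotated coding sequence of 849 bases lacks the first 77 codons of the full 1080 bases, held 46.2%, 50.3% and 45.6% of TPM. It was the leading transcript there, ahead of Mapk14-202 at 39.0%, 38.03% and 36.1%. The second set of tables reversed that order, with 29.4% ± 3.56 for Mapk14-203 and 46.9% ± 7.4 for Mapk14-202 (SD, n = 3 each). Both carry the first of the alternative exons shown above. The second exon is carried by Mapk14-201 alone among coding transcripts, which held 14.0%, 10.9% and 17.3% of the coding transcripts' TPM, a mean of 14.0% ± 3.2 (SD, n = 3). Over coding transcripts with either exon, the second set of tables gave 14.7% ± 3.24 for the second, in the same order of libraries. This leaves out the coding transcript Mapk14-206, which held 11.5% and 6.37% of Mapk14 TPM there in replicates 2 and 3.

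Mapk9 used mostly its second exon. Transcripts with the second exon held 91.4%, 91.6% and 91.9% of the coding transcripts' TPM in replicates 1, 2 and 3, a mean of 91.6% ± 0.233 (SD, n = 3). In the second set of tables they held 89.2% ± 0.241. At the last exon the coding transcripts' TPM was split nearly evenly, with 56.2%, 55.4% and 52.6% of it on the downstream acceptor, which gives the longer protein. The second set of tables put this share at 48.6% ± 0.284 (SD, n = 3), on the other side of an even split. By expected counts the downstream acceptor led in every library, with 3325.5, 3153.4 and 2698.4 counts, against 1119.6, 1095.7 and 1015.0 counts for the upstream acceptor. By TPM the downstream form is carried mainly by Mapk9-201, of 4675 bases, and the upstream form mainly by Mapk9-204, of 1302 bases.

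Mapk8 also used its second exon more than its first by TPM, at 72.2%, 75.8% and 70.3%, a mean of 72.8% ± 2.77 (SD, n = 3), and 80.3% ± 1.94 in the second set of tables. The first exon is carried mainly by Mapk8-205, a transcript of 5756 bases, and the second by Mapk8-201 and Mapk8-203, of 2587 and 1310 bases. By expected counts the second exon led in replicate 2 and the first in replicates 1 and 3. Coding transcripts with the second exon had 277.6, 378.2 and 246.3 counts, against 372.9, 359.3 and 312.2 counts for those with the first. The share by TPM therefore depended on the annotated lengths. The downstream acceptor held 27.5%, 45.4% and 41.0% of the TPM of Mapk8 coding transcripts, with an SD of 9.35 percentage points (n = 3). Replicate 1 was low in both sets of tables. By expected counts this acceptor had 158.4, 288.8 and 185.4 counts, against 492.0, 448.7 and 373.1 counts for the upstream acceptor.

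**Figure D4:**
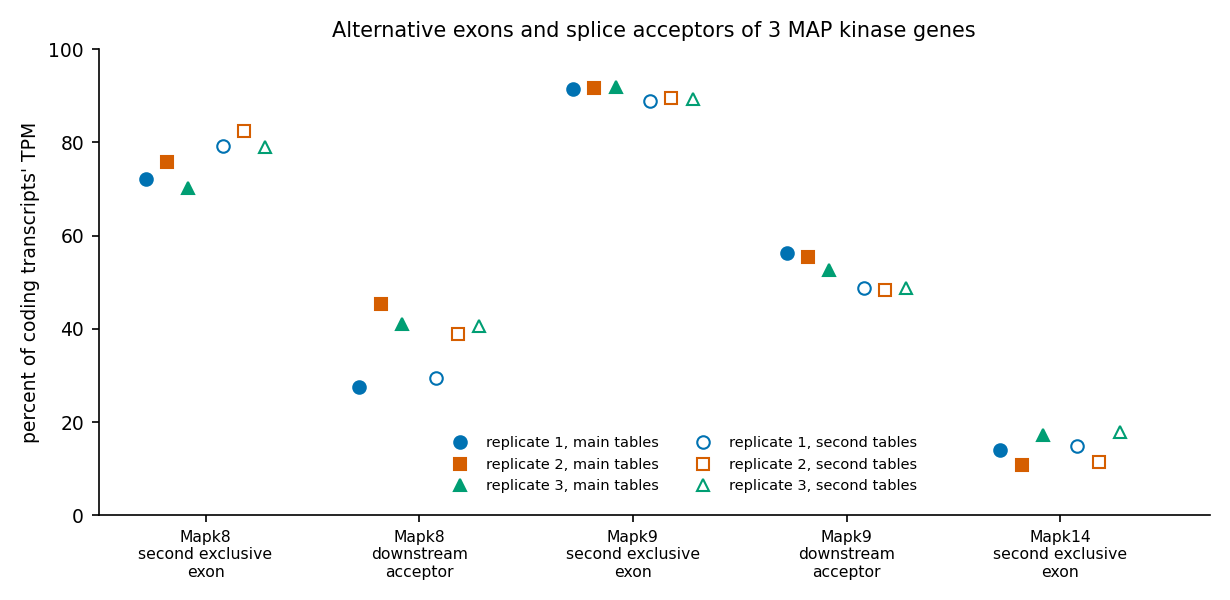
Percent of TPM that carried the second exclusive exon or the downstream acceptor, over coding transcripts with either form. Each library is shown in the main tables (filled symbols) and the second tables (open symbols). The second exon held 91.4% to 91.9% in Mapk9 and 10.9% to 17.3% in Mapk14 in the main tables, and the libraries of Mapk8 were the most spread at the acceptor.

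The estimates for single Mapk8 transcripts were imprecise. The authors' interval for Mapk8-201 ran from 0.572 to 1.16 TPM in replicate 1 and that for Mapk8-203 from 0.903 to 1.85 TPM, so the intervals overlapped. The level of these intervals is not given in the sources used here. Leading transcripts also changed with the measure, from Mapk8-201 by TPM to Mapk8-203 in the second set of tables and Mapk8-205 by counts.

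The libraries differed from each other by more than counting noise for most members, as they did for most genes. A chi-square test of rounded expected counts against library totals, with Benjamini-Hochberg adjustment over all genes tested, called 7 of 9 members, beside 69.3% of 13075 genes. The 7 were Mapkapk2 (adjusted p = 6.6e-163), Map2k1 (1.8e-55), Map3k8 (8.9e-37), Map2k3 (4.6e-23), Map2k4 (8.7e-08), Mapk9 (1.3e-05) and Mapk3 (0.00043). Mapk8 and Mapk14 were not called, with adjusted p of 0.26 and 0.45. In bulk RNA, fewer cells of a type and less RNA per cell cannot be told apart, and that holds for each difference between libraries given here.

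With a library left out, fewer members and fewer genes in all were called. Map2k3 was called in each case (adjusted p of 3e-10, 0.0046 and 3e-22 without replicates 1, 2 and 3), and Mapk8 and Mapk14 in none. Without replicate 1, 4 members were called, beside 51.6% of genes tested, and Map3k8, Map2k1 and Mapk9 were not (adjusted p of 0.21, 0.78 and 0.86). Without replicate 2, 6 were called, beside 51.3% of genes tested, and Mapk3 was not (adjusted p = 0.35). Without replicate 3, 5 were called, beside 53.9% of genes tested, and Map2k4 and Mapkapk2 were not (adjusted p of 0.37 and 0.13). With effective library sizes from the TMM method, 8 members were called, Mapk14 among them (adjusted p = 7.7e-06), beside 67.0% of all genes.

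**Figure D5:**
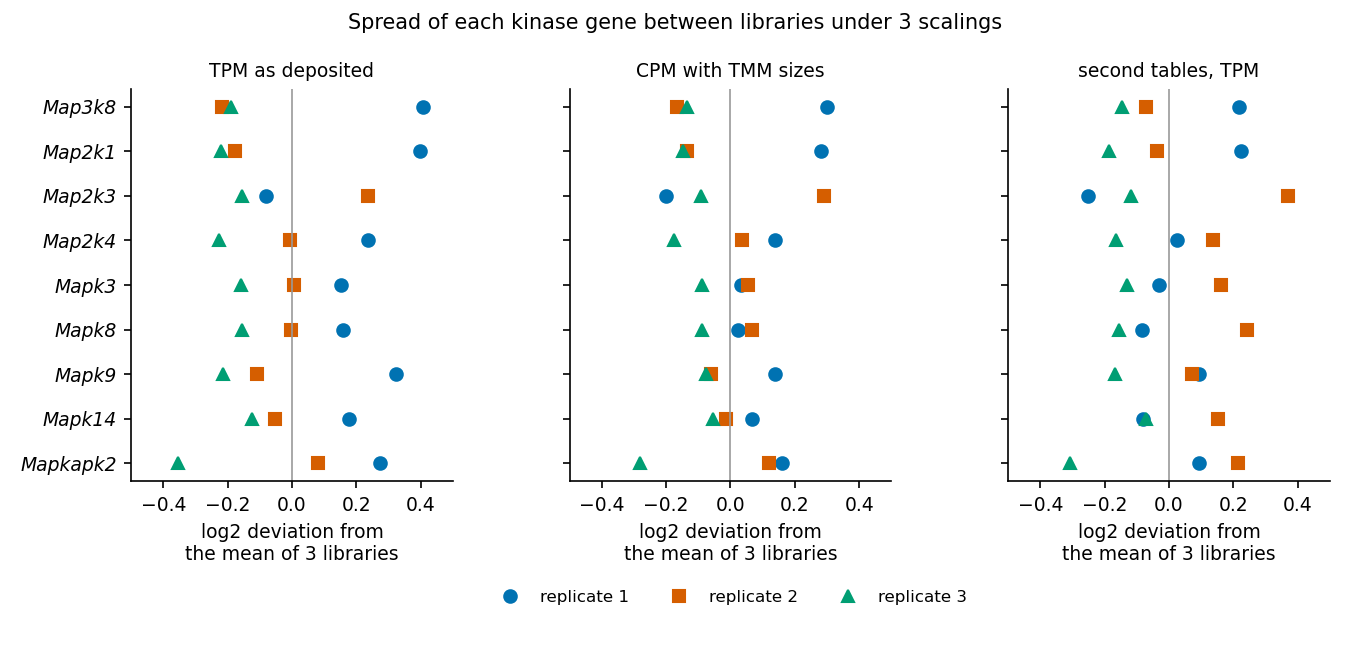
Deviation of each library from the mean of the 3 libraries in log2 units, for each kinase gene, as TPM, as CPM with TMM library sizes and as TPM of the second tables. Replicate 1 is highest for Map3k8 and Map2k1, replicate 2 for Map2k3, and replicate 3 is lowest for Mapkapk2 in each panel, while the highest library of Map2k4, Mapk3, Mapk8, Mapk14 and Mapkapk2 changes between panels.

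A set of 6 members kept the same highest or lowest library under all 6 scalings tried. Map3k8 was highest in replicate 1, at 80.7 CPM, beside 61.1 and 63.4 CPM in replicates 2 and 3. Map2k1, its substrate, was likewise highest in replicate 1, at 139 CPM beside 109 CPM in each of the others. Map2k3 was highest in replicate 2, at 31.5 CPM, beside 21.5 and 24.5 CPM in replicates 1 and 3. Gaps were smaller for Mapk9, highest in replicate 1, at 88.6 CPM beside 80.6 and 81.1 CPM, and for Map2k4, lowest in replicate 3, at 48.3 CPM beside 56.6 and 54.98 CPM in replicates 1 and 2.

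Mapkapk2 was lowest in replicate 3, at 336 CPM, beside 429 and 436 CPM in replicates 1 and 2. The SD of log2 CPM with TMM sizes was 0.26 for Map3k8, 0.25 for Map2k1, 0.26 for Map2k3 and 0.24 for Mapkapk2. Among 6146 genes with a mean of at least 5 TPM, whose median SD was 0.13, these stood at the 85.5, 83.7, 85.1 and 83.3 percentiles. Of the 8 members in that range, Mapk14 and Mapk3 varied least, with SDs of 0.06 and 0.08 at the 16.9 and 24.9 percentiles. Mapk14 had 144, 142 and 141 CPM and Mapk3 89.5, 94.9 and 87.3 CPM, so the higher TPM of these genes in replicate 1 was not present to the same degree in CPM.

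Other measures moved with the same libraries. The summed level of 5 stromal cell markers (Col1a1, Col1a2, Col3a1, Pdgfrb and Dcn) was 0.09, 6.95 and 3.07 TPM in replicates 1, 2 and 3, the same order as Map2k3 by CPM, and none of the 5 was at 0 in every library. The summed level of the nuclear RNAs Malat1, Neat1 and Rn7sk was 27901, 27010 and 68714 TPM, highest in the library where Mapkapk2 was lowest. The median of the means of these nuclear RNAs was 218 TPM, so 1 of them made up nearly all of that sum. The part of the stromal or the nuclear sum in the kinase levels was not tested.

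Transcripts annotated as retaining an intron were a small part of the members' RNA and were most frequent in replicate 3. They held 33 of 53945 counts in replicate 1 (0.0612%, exact 95% interval 0.0421% to 0.0859%), 22 of 54629 in replicate 2 (0.0403%, 0.0252% to 0.061%) and 118 of 42034 in replicate 3 (0.281%, 0.232% to 0.336%). The intervals cover counting error only, and that of replicate 3 did not meet the others. Of the 6 members with such transcripts detected, replicate 3 had the highest share in 5. In Map3k8 they held 0.77%, 0.40% and 4.10% of TPM, and in Mapk8 1.22%, 0.68% and 5.68%. Malat1, a nuclear RNA, stood at 112, 90.6 and 452 TPM in the same libraries, and its relation to these transcripts was not tested.

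Upstream of the members, each gene of the receptor's own pathway was expressed. All 16 genes from Tlr4 to TAK1 were above 1 TPM (limma), with a median of 16.7 TPM. Over nuclear protein-coding genes tested, the share above 1 TPM was 61.0%, which is the background for each list below. The highest were the coreceptor gene Cd14 at 199 ± 71.0 TPM, the adaptor gene Myd88 at 55.9 ± 10.9 TPM and Ube2n, which encodes a ubiquitin-conjugating enzyme that works with Traf6, at 50.2 ± 8.77 TPM (SD, n = 3 each). The lowest was the adaptor gene Tirap at 2.02 ± 0.327 TPM.

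The partners of Tpl2 were present too, with all 5 genes of its complex above 1 TPM. Nfkb1, whose p105 product holds Tpl2, had 26.6 ± 3.54 TPM, beside 17.9 ± 4.67 TPM for Map3k8. The IKK genes Ikbkb and Chuk had 19.9 ± 1.18 and 9.89 ± 1.63 TPM, and Tnip2, which encodes the Tpl2-binding protein ABIN2, had 5.28 ± 0.478 TPM (SD, n = 3 each).

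Of 20 other MAP3K and RAF genes, 13 were above 1 TPM and 5 below. Map3k1 led at 22.5 ± 2.22 TPM, and the RAF kinase gene Araf had 16.5 ± 1.99 TPM (SD, n = 3 each), and Map3k21 was listed at 0. Scaffold genes, whose products hold kinases of a cascade together, were above 1 TPM in 9 of 13 cases. The shares above 1 TPM in both lists lay near the 61.0% of nuclear protein-coding genes tested. Arrb2 had 98.3 ± 7.86 TPM, Lamtor1 78.0 ± 5.21 TPM and Iqgap1 67.4 ± 11.9 TPM, while the JNK scaffold gene Mapk8ip2 was listed at 0.

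Downstream of the members, 5 of 8 genes of kinases that MAP kinases activate were above 1 TPM. This share lay near the 61.0% of nuclear protein-coding genes tested. The MNK genes Mknk2 and Mknk1 had 26.3 ± 0.776 and 21.9 ± 2.42 TPM and the RSK gene Rps6ka1 25.4 ± 2.45 TPM (SD, n = 3 each), with Rps6ka6 listed at 0. All 16 genes of transcription factor substrates were above 1 TPM. They ranged from Elk1, which encodes an ERK substrate, at 4.61 ± 0.503 TPM to Ddit3 at 115 ± 23.8 TPM, with Jun, the namesake JNK substrate, at 62.3 ± 9.23 TPM and Cebpb at 51.8 ± 20.7 TPM.

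Genes of the proteins by which MK2 acts on messenger RNAs stood high, with 8 of 8 above 1 TPM and a median of 38.2 TPM. Zfp36, which encodes tristetraprolin, had 624, 579 and 378 TPM in replicates 1, 2 and 3. Replicate 3 was the low library, as for Mapkapk2. Pabpc1, which encodes a poly(A)-binding protein, had 230 ± 22.5 TPM, Zfp36l1 had 88.9 ± 8.16 TPM and Hnrnpa0 had 13.1 ± 1.23 TPM (SD, n = 3 each).

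Among 12 phosphatase genes whose products inactivate MAP kinases, 9 were above 1 TPM and 2 below, beside 61.0% of nuclear protein-coding genes tested above. Dusp1 had 156 ± 37.8 TPM, Dusp2 79.7 ± 25.0 TPM and Dusp7 10.7 ± 1.16 TPM (SD, n = 3 each), and Ptprr was listed at 0. Dusp1, which acts on p38 and JNK, thus stood above each of the 9 kinase genes by mean TPM.

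Map3k8 had the largest SD of the members on the log2(TPM + 1) scale, 0.337 beside 0.335 for Map2k1. This rank did not hold under other scalings. The SD of log2 CPM was 0.28 for Map2k3 and 0.22 for Map3k8. In the second set of tables the SD of log2 TPM was 0.33 and 0.19. The genes nearest to Map3k8 in profile over the 3 libraries were Clec2d, H2-M3 and Cd53. Their root mean square differences of centred log2(TPM + 1) were 0.0084, 0.0084 and 0.0093. Clec2d had 92.0, 60.3 and 60.7 TPM. With 3 libraries such likeness is common, and 101 of 4131 genes with a mean of at least 10 TPM came within 0.05 of the profile of Map3k8.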

How the data were processed

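Per the text deposited with each library, the tables are on mm10 with GENCODE M21, and no source used here gives the aligner, the tools or the strand setting. The authors deposited expected counts and TPM per gene and transcript from a transcriptome alignment, and the percent of each gene's abundance per transcript, per the file headers. Interval bounds of TPM and the posterior SD of counts, per the file headers, were read as the authors' signal values. A second deposited set of transcript tables, made directly from reads, gave its own estimated counts and TPM, summed here to genes. TPM is scaled over all RNA, so small RNAs lower the TPM of messenger RNAs.

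Levels used limma 3.58.1 (R 4.3.3) on log2(TPM + 1) against 1 TPM, for genes above 0 TPM in at least 1 library, called at adjusted p under 0.05. Counting noise was assessed on expected counts rounded to whole numbers, by chi-square with 2 degrees of freedom, where these summed to at least 30. TMM sizes came from edgeR 4.0.16 and size factors from DESeq2 1.42.0. Exon shares summed transcript TPM over coding transcripts with each exon, as percent of those with either exon. Both tests were checked on simulated data. For the chi-square test, unchanged genes were simulated with counting error only, so that check does not cover spread beyond it. Members and gene lists were chosen with earlier results of these data known. Named genes were the members, all related kinases, and the 3 highest and the lowest of each other list. Also named were transcripts with a mean share of at least 5%. So were 3 profile neighbours of the member with the largest SD of log2(TPM + 1). Some genes under this rule are not reported here. Intervals cover counting error only. With 1 group, no conditions were compared, and untreated cells were not analysed here.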

Additional observations from a re-analysis of the deposited data

How the results depend on the processing

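No paired analysis was possible because the libraries form 1 group. The count of members above 1 TPM stayed at 9 with 0.1 as pseudocount, with a minimum mean count of 10, in the second tables, with TPM rescaled over coding genes, with TMM scaling and with each replicate left out, and was 8 against a level of 5 TPM, where Mapk8 lay below it (-0.61 on the log2 scale, limma adjusted p = 0.00031). Genes of the other 9 pathway lists above 1 TPM numbered 89 of 113, beside 61.0% of nuclear protein-coding genes tested. Under these alternatives they numbered 71 to 96. Members beyond counting noise numbered 7, 7 to 8 under other scalings, count minimums and the second tables, and 4 to 6 with a replicate left out. Map2k1 minus Map2k2 ranged from -0.05 to 0.2 with a replicate left out, lowest without replicate 1, against 0.11. Pairs with the same sign in every library numbered 11 of 12, and 10 to 12 under the alternatives. Members with a transcript of at least 90% numbered 5 under each alternative tried, Map2k4 giving way to Mapk3 in the second tables. Rescaling over coding genes shifted log2 levels by -0.19, 0.06 and 0.14 in replicates 1, 2 and 3 relative to their mean, and TMM scaling by -0.12, 0.04 and 0.07. Where a value moved, the cause was not tested. Depth limits Mapk8, whose named transcripts Mapk8-201, Mapk8-203 and Mapk8-205 rest on 60.9 to 373 counts each, and Mapk10, Mapk12, Mapk13 and Mapk15, near the limit of 3 counts.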

Other observations

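Mapk9 transcripts that carry the first exclusive exon exchanged places between libraries in the main tables. Mapk9-202 held 8.25%, 4.76% and 0% of Mapk9 TPM in replicates 1, 2 and 3, while Mapk9-203 held 0%, 3.37% and 7.83%. Their authors' intervals overlapped in replicate 2, where Mapk9-202 ran up to 1.3 TPM and Mapk9-203 up to 0.787 TPM. In the second set of tables Mapk9-202 held 10.6%, 10.2% and 9.41%, and Mapk9-203 was listed at 0 in each library. These transcripts were picked after their values were seen, and both fell under the share of 5% used to name transcripts.

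Mapk8-209, a non-coding transcript of Mapk8, held 7.77% of the gene's TPM in replicate 3 on 5.2 counts, and 0% in replicates 1 and 2. The second set of tables gave 7.07% in replicate 3 and 0% in the others. It too was picked after its values were seen.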
